A study of Homo sapiens with 4 samples.

Results

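The terminal 5 Mb of the long arm of human chromosome 10, band 10q26, had a lower contact level in SH-SY5Y cells with a stable TDP-43 knockdown than in control SH-SY5Y cells. The region was defined by a position rule: every listed pair of 50 kb bins with both bin middles on chromosome 10 above 128.8 Mb (hg38). The rule took in 351 of the 89239 listed pairs, against 4265 on the rest of chromosome 10. Of the 351 pairs, 97 held contacts within 1 bin and 254 held contacts between different bins. The region was itself selected on the knockdown-to-control fold changes of these libraries, so every difference between the groups is given below as a description and not as a test.

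The assay was Micro-C, in which micrococcal nuclease cuts cross-linked chromatin down to nucleosomes and neighbouring fragments are ligated, so that each sequenced ligation counts as 1 contact between 2 places in the genome. SH-SY5Y is a human neuroblastoma line. Knockdown cells carried a lentiviral hairpin RNA against TDP-43 (shTDP-43) and control cells carried the label "control"; a non-targeting hairpin (shNC) was made in the same vector. The protocol given for all 4 samples names puromycin selection for 2 weeks at 2 µg/mL, followed by culture at 1 µg/mL, in its account of the stable knockdown cells, and does not describe selection of the control cells separately. In both groups the input of a library was 1000000 cells. There were 2 knockdown and 2 control libraries, whose listed contacts totalled 115168160 and 142424414 in knockdown and 158400914 and 163147992 in control. Whether libraries of a group came from separate cultures, and whether the selected cells were 1 clone, is left unsaid in the labels, so the spread within a group may be technical. Each selected population stood for 1 condition, so fewer copies of the segment per knockdown cell and fewer contacts per copy cannot be told apart.

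TDP-43, encoded by TARDBP, is a nuclear RNA- and DNA-binding protein that prefers UG- or TG-rich sequence and is lost from the nucleus of affected neurons in amyotrophic lateral sclerosis. Contact maps of human chromosomes divide into self-contacting domains, inside which promoters and distal elements meet more often than across domain borders. The end of 10q is such a place, with long gene-poor introns and gaps on its inner side and a compact cluster of genes near the telomere. The hairpin acts on RNA, so contacts do not check the knockdown. The 50 kb bin over TARDBP on chromosome 1 (11000001 to 11050000) had 32.8 and 32.9 CPM within the bin in knockdown and 39.2 and 37.2 CPM in control. CPM are contacts per 1000000 listed contacts, scaled by TMM library factors. The log2 fold change of knockdown over control in that bin was -0.22. It was -0.08 once the genome-wide trend with contact level, described below, was removed.

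The genes of 10q26 have promoters rich in CpG dinucleotides. Among 73 RefSeq promoters of 60 genes in the region (GRCh38.p14, 250 bases before to 50 bases after each start), the median GC content was 69.0%, against 58.7% over all 35116 promoters. The median number of CpG was 20 in the region and 14 over all. The letters TGTGTG, a short stretch of the repeat that TDP-43 binds, occurred on either strand in 6 of the 73 promoters (8.22%), against 17.2% of all promoters. The letters GGNGGCAG, the core of the CTCF motif, occurred on either strand in 16 of the 73 (21.9%), against 16.7% of all. A match is a string of letters and not a bound site. The contact table resolves 50 kb, so no contact value belongs to a single promoter. The first pair of promoters below shows a CpG-rich promoter and one with few CpG, with CpG in capitals: EBF3, a transcription factor gene, holds 52 CpG at chr10:129964225-129964524 (minus strand), and CYP2E1, a cytochrome P450 gene, holds 7 at chr10:133527113-133527412 (plus strand). The other 3 are the protein-coding promoters that hold the TG repeat, in capitals as TGTGTG or as CACACA where it lies on the opposite strand: CFAP46 at chr10:132942521-132942820, CALY at chr10:133336847-133337146 and SYCE1 at chr10:133568242-133568541, all on the minus strand.
EBF3: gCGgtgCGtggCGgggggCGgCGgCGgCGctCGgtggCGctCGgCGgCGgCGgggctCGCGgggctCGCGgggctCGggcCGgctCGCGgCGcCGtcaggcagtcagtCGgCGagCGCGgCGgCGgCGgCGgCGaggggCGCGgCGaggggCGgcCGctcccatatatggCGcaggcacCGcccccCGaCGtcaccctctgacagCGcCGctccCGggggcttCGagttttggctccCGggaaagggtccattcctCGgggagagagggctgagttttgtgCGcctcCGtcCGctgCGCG
CYP2E1: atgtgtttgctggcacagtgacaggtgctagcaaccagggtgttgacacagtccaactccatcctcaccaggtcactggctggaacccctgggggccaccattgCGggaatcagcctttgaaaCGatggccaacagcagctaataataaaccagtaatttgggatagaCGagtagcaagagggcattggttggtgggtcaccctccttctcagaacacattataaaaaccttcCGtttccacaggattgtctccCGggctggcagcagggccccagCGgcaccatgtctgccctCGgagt
CFAP46: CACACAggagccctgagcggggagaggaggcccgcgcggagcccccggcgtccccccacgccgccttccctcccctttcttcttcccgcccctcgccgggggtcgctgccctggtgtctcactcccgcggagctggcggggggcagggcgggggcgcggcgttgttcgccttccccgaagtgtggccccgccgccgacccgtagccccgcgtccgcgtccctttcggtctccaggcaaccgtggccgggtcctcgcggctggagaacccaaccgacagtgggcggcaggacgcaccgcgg
CALY: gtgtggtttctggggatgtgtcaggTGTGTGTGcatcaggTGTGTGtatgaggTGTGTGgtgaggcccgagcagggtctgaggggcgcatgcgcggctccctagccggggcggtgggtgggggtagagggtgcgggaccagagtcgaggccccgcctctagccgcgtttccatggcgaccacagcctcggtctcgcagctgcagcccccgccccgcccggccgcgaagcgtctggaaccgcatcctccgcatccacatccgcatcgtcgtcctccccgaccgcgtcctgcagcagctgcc
SYCE1: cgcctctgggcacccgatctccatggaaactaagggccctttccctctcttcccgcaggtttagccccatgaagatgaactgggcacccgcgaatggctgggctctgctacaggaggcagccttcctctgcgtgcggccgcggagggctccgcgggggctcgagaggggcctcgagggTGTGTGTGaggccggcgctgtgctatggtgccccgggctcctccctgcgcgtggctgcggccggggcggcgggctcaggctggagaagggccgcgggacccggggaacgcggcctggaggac

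The region also holds 4 microRNA genes. They are shown with the seed, bases 2 to 8, in capitals, because they place small RNA genes in the bins described below. No seed was shared between the 6 mature sequences. MIR202 (chr10:133247538-133247557 for the 3p arm, minus strand) lies in the bin of UTF1 and VENTX, MIR3944 in the bin of ECHS1, MIR4297 in a bin of EBF3, and MIR378C in a bin with no listed protein-coding gene.
miR-4297: uGCCUUCCugucugug
miR-378c: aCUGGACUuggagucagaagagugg
miR-202-3p: aGAGGUAUagggcaugggaa
miR-202-5p: uUCCUAUGcauauacuucuuug
miR-3944-3p: uUCGGGCUggccugcugcuccgg
miR-3944-5p: uGUGCAGCaggccaaccgaga

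The contacts of the region made up a smaller part of each knockdown library. They were 0.497% and 0.506% of all listed contacts in the knockdown libraries (572543 and 720892 contacts), against 0.608% and 0.632% in the control libraries (963082 and 1030320 contacts). Both knockdown shares lay below both control shares, and the ratio of the group means was 0.809, or 19.1% lower in knockdown. With 2 libraries against 2, no exact permutation test can reach p = 0.05. With the same denominator, contacts within a bin gave a ratio of 0.795 and those between adjacent bins (50 kb) 0.889. Those at 100 to 150 kb gave 0.875 and those at 200 kb or more 0.829. The whole table also shifted by distance. Over all listed pairs the median log2 fold changes of these classes were 0.02, 0.09, -0.01 and -0.12, in the same order.

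Pair by pair, nearly the whole region leaned the same way. A pair is called lower or higher here where edgeR's quasi-likelihood test, fitted over all 89239 pairs, gave an adjusted p below 0.05. Called lower in knockdown were 164 of the 351 pairs (46.7%), and 0 were called higher. Of all listed pairs, 10.5% were called lower and 5.76% higher, and on the rest of chromosome 10 the counts were 330 lower and 256 higher of 4265. The log2 fold change was negative for 327 of the 351 pairs, with a median of -0.34, against 0.02 over all listed pairs and 0.04 on the rest of chromosome 10. Both knockdown libraries lay below both control libraries in 260 of the pairs and above both in 8, and 26.3% of all listed pairs had both knockdown libraries below. Fewer pairs were called lower when either knockdown library was left out, in the region and over the whole table. The median log2 fold change of the region was -0.34 without knockdown library 1 and -0.36 without knockdown library 2. Over all listed pairs it was 0.02 in both fits.

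Across the genome, abundant pairs tended to be lower in knockdown, and the bins of 10q26 are abundant. The median contact level within a bin was 34.7 CPM in knockdown and 43.1 CPM in control for the 97 bins of the region, and 7.81 and 7.35 CPM for all listed bins. After the trend of the log ratio with abundance was removed from each library, 166 of the 351 pairs (47.3%) were called lower and 0 higher, against 5.97% of all pairs called lower. The median log2 fold change of the region was then -0.31.

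The size of the difference varied with the distance between the bins. Within bins, 83 of 97 pairs were called lower, with a median log2 fold change of -0.39, against 14.3% of all within-bin pairs called lower. That median was -0.21 with the abundance trend removed, and 71 of the 97 were then called, against 5.12% of all within-bin pairs. Between adjacent bins 29 of 93 pairs were called lower (median -0.24), against 5.64% of all such pairs. At 100 to 150 kb it was 24 of 87 (median -0.30), against 4.62%. At 200 kb or more, 28 of 74 pairs were called lower with a median of -0.42, whereas 7.92% of all listed pairs at those distances were called lower and their median was -0.12. With the trend removed 32 of these 74 were called, against 11.3% of all listed pairs at those distances. From within a bin to 200 kb or more, the trend-removed medians of the region were -0.21, -0.31, -0.38 and -0.50. Over all listed pairs they were 0.03, 0.03, -0.08 and -0.20. The order of the distance classes thus depended on the scaling.

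**Figure D1:**
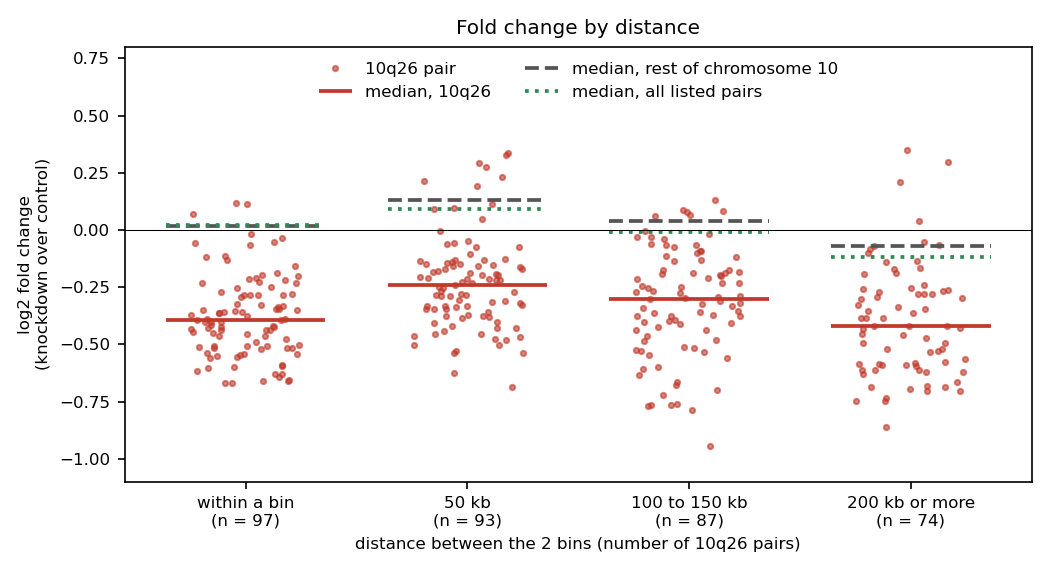
Log2 fold change (knockdown over control) of the listed pairs of 10q26 by the distance between the 2 bins in kb, with the medians of the region, of the rest of chromosome 10 and of all listed pairs. Each point is 1 pair. With TMM scaling the medians of the region lie below 0 in each class. They are -0.39 within a bin, -0.24 at 50 kb, -0.30 at 100 to 150 kb and -0.42 at 200 kb or more.

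The difference grew toward the telomere. In the innermost 1 Mb, 9 of 20 bins were called lower within the bin and the median log2 fold change was -0.15. The next stretches had 18 of 20 (median -0.29), 20 of 20 (-0.40) and 20 of 20 (-0.50). The last had 16 of 17 (-0.59), and of all listed within-bin pairs 14.3% were called lower. With the abundance trend removed 8, 12, 17, 18 and 16 bins were called lower in the same order, against 5.12% of all listed within-bin pairs. The 5 medians were then -0.09, -0.19, -0.26, -0.19 and -0.29, so the order of the stretches was less regular. The median control level ran in the same direction, at 21.8, 40.6, 39.0, 97.0 and 97.7 CPM from the innermost stretch outward, and 2, 4, 1, 9 and 20 protein-coding genes had their middle in these stretches. Between bins, 1 of 23, 1 of 31, 6 of 39, 39 of 102 and 34 of 59 pairs were called lower in the same order, against 5.83% of all listed pairs of different bins. The innermost counts thus lay near or below the share over the whole table.

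Fold change, contact level, position and gene content were correlated over the 97 bins, which share the same 4 libraries and lie next to each other. Pearson's r of the log2 fold change was -0.84 with log2 control CPM, -0.70 with position and -0.47 with the number of protein-coding genes in the bin. With the abundance trend removed the 3 values were -0.28, -0.44 and -0.23. Over all 48992 within-bin pairs, r with log2 control CPM was -0.56 before and -0.12 after. In the control libraries alone, log2 CPM within the bin had r of 0.48 with the number of genes and 0.60 with position. How much of the difference each of these carries was not tested.

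**Figure D2:**
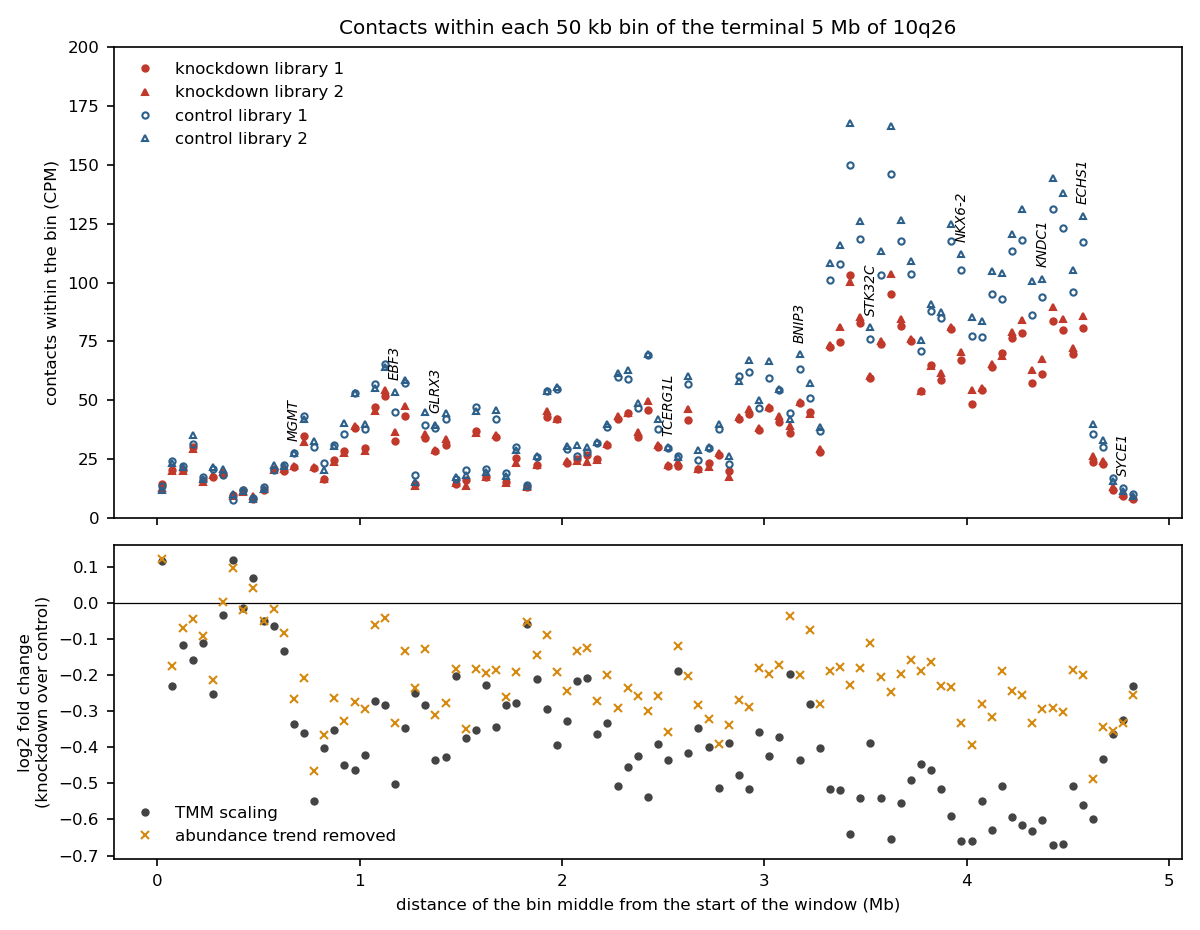
Contacts within each of the 97 bins of 10q26 in CPM, 1 point per library, against the distance from the inner edge of the region in Mb, and below it the log2 fold change of knockdown over control with TMM scaling and with the abundance trend removed. Knockdown points lie below control points over most of the region, and within-bin log2 fold changes with TMM scaling reach -0.67 in the outer part.

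The inner edge of the rule does not coincide with a step in the data. The last 2 bins outside it, at 128.725 and 128.775 Mb (positions are bin middles), had log2 fold changes of -0.22 and -0.07. The first 2 inside it, at 128.825 and 128.875 Mb, had 0.12 and -0.23. At 128.825 Mb the knockdown libraries had 14.6 and 13.0 CPM and the control libraries 13.6 and 11.9 CPM, so the groups overlapped there. The stretch between the edge and MGMT, from 128.825 to 129.425 Mb, holds no annotated protein-coding gene, and its within-bin log2 fold changes ran between -0.25 and 0.12.

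Of 36 protein-coding entries in the region, 35 lay over at least 1 pair called lower and 0 over a pair called higher, where 45.7% of all 18703 protein-coding genes lay over a lower pair. The exception was FRG2B, a member of a duplicated subtelomeric family, in the last listed bin at 133.625 Mb. That bin had 7.92 and 8.74 CPM in knockdown and 10.1 and 9.53 CPM in control, the only pair listed over FRG2B. The sources used here do not say how reads shared between copies of this family were counted. Bins with a protein-coding gene were called lower within the bin in 52 of 53 cases (median log2 fold change -0.46). For bins with none it was 31 of 44 (median -0.29). Of all listed within-bin pairs 14.3% were called lower. With the trend removed the counts were 47 of 53 and 24 of 44, against 5.12% of all listed within-bin pairs. The 2 medians were then -0.26 and -0.19. Several genes share a bin, so the genes are not separate measurements.

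The transcription factor and chromatin genes of the list (6 of 6 over a lower pair) had a median log2 fold change of -0.66 in their start bins. With the trend removed it was -0.29. Genes without a given start, here NKX6-2 and PWWP2B, were placed by the bin of their middle. EBF3, a factor of the early B-cell factor family needed for neuronal development, starts in the bin at 129.975 Mb. That bin had 32.7 and 36.7 CPM in knockdown and 44.9 and 53.6 CPM in control, a log2 fold change of -0.50 ± 0.06 (SE). The groups did not overlap although the 2 control libraries differed by more than the knockdown ones. NKX6-2, a homeobox repressor of oligodendrocyte and motor neuron progenitors, lies in the bin at 132.775 Mb together with the end of INPP5A. There the level was 67.2 and 70.4 CPM in knockdown and 105.3 and 112.1 CPM in control, a log2 fold change of -0.66. UTF1, a chromatin-associated factor of undifferentiated embryonic cells, and VENTX, a homeobox gene of blood cell progenitors, start in the same bin at 133.225 Mb. That bin had 83.6 and 89.6 CPM in knockdown and 131.3 and 144.3 CPM in control. With TMM scaling its log2 fold change, -0.67, was the lowest of any within-bin pair of the region. After removal of the abundance trend it was -0.29, and the bin of SPRN at 133.425 Mb was lower, at -0.49. PWWP2B, whose protein binds methylated histone tails, lies at 132.425 Mb with 95.0 and 103.6 CPM in knockdown and 146.1 and 166.4 CPM in control (-0.65).

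MGMT, which removes alkyl groups from guanine and is the one gene of the DNA repair list, spans 7 listed bins, and all 7 were called lower within the bin. Its start bin at 129.475 Mb had 21.8 and 22.0 CPM in knockdown and 27.5 and 27.8 CPM in control (log2 fold change -0.34 ± 0.06). The lowest of the 7 by log2 fold change, at 129.575 Mb, had 21.4 and 21.7 CPM in knockdown and 30.2 and 32.8 CPM in control (-0.55). It was picked after the values were seen, and whether bins of the gene differ from each other was not tested.

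The signalling genes (4 of 4 over a lower pair) had a median start-bin log2 fold change of -0.45, or -0.17 with the trend removed. INPP5A entered with the bin of its middle. PPP2R2D, a regulatory subunit of a serine/threonine phosphatase, stood at the weak end. Its start bin at 131.925 Mb had 36.2 and 38.9 CPM in knockdown and 44.4 and 41.8 CPM in control (-0.20), and with the abundance trend removed the value was -0.04 and the call was lost. STK32C, a kinase gene, had 59.5 and 60.3 CPM in knockdown and 75.9 and 81.0 CPM in control at 132.325 Mb (-0.39, or -0.11 with the trend removed). INPP5A, whose product ends the calcium-releasing inositol phosphate signal, spans 6 listed bins, all of them called lower within the bin. At 132.675 Mb it had 58.7 and 61.7 CPM in knockdown and 85.0 and 87.3 CPM in control (-0.52). KNDC1, a Ras exchange factor of dendrites known from mouse cerebellum, had 61.2 and 67.3 CPM in knockdown and 93.7 and 101.6 CPM in control (-0.60).

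Neuronal and adhesion genes (6 of 6) had a median of -0.56, or -0.22 with the trend removed. DPYSL4, of the collapsin response mediator family that acts in axon growth, had 74.9 and 81.3 CPM in knockdown and 107.9 and 116.1 CPM in control in its start bin (-0.52). The next bin outward, at 132.225 Mb, which holds parts of DPYSL4 and STK32C, had the highest control mean of the region, with 103.3 and 100.4 CPM in knockdown and 149.8 and 167.8 CPM in control (-0.64). ADGRA1, an adhesion receptor gene expressed in brain, had 78.8 and 84.0 CPM in knockdown and 118.2 and 131.1 CPM in control (-0.61). The bin of ADAM8, a membrane-bound metalloprotease gene, had 79.7 and 84.5 CPM in knockdown and 123.1 and 138.1 CPM in control (-0.67). CALY, which encodes the neuronal vesicle protein calcyon, shares its bin with TUBGCP2 and ZNF511, at 69.7 and 72.0 CPM in knockdown and 96.0 and 105.3 CPM in control (-0.51). JAKMIP3 was the least changed of the list, with 44.8 and 44.1 CPM in knockdown and 50.8 and 57.3 CPM in control in its start bin (-0.28). With the trend removed that value was -0.08, and the call was lost.

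Metabolic and mitochondrial genes (7 of 7, median -0.56, or -0.20 with the trend removed) sit largely in 1 bin at 133.375 Mb, which holds FUOM, ECHS1, PAOX and MTG1. ECHS1 encodes the mitochondrial enoyl-CoA hydratase of fatty acid oxidation, and PAOX oxidises polyamines. Their bin had 80.7 and 85.7 CPM in knockdown and 117.2 and 128.3 CPM in control (-0.56, or -0.20 with the trend removed). BNIP3, a mitochondrial outer membrane protein of hypoxia and mitophagy, had 48.7 and 49.4 CPM in knockdown and 63.2 and 69.5 CPM in control (-0.44). GLRX3, a glutaredoxin that handles iron-sulphur clusters, had 28.6 and 28.8 CPM in knockdown and 38.2 and 39.5 CPM in control (-0.44). CYP2E1, the ethanol-metabolising cytochrome of liver, had 11.9 and 13.3 CPM in knockdown and 16.9 and 15.6 CPM in control (-0.36), a call that was lost without knockdown library 1.

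Among the cytoskeletal, ciliary and meiotic genes (3 of 3, median -0.51, or -0.32 with the trend removed), CFAP46, a component of the ciliary central apparatus, had 64.0 and 65.4 CPM in knockdown and 95.2 and 105.0 CPM in control in its start bin (-0.63). SYCE1, of the synaptonemal complex that joins meiotic chromosomes, had 9.21 and 10.2 CPM in knockdown and 12.7 and 11.7 CPM in control (-0.32), and this call too was lost without knockdown library 1. Outside these lists, 8 of 9 genes lay over a lower pair. SPRN, a relative of the prion protein gene expressed in brain, belongs to the neuronal and adhesion list. It shares its bin at 133.425 Mb with MTG1. The level there was below that of the ECHS1 bin next to it in both groups, at 23.6 and 26.3 CPM in knockdown and 35.8 and 40.0 CPM in control. Its log2 fold change was -0.60, or -0.49 once the abundance trend was taken out. MIR378C lies in the bin at 130.975 Mb, which had 25.2 and 24.6 CPM in knockdown and 31.7 and 32.4 CPM in control (-0.36).

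Pairs of different bins crowd into the outer part of the region, where contacts over longer distances were listed far more often than elsewhere. At 100 kb, 58.9% of the possible pairs of the region were listed, against 14.3% on the rest of chromosome 10, and at 400 kb 6.74% against 0.824%. Of the 74 listed pairs at 200 kb or more, 69 lay between 131.9 and 133.4 Mb, and these held all 28 that were called lower. The bin at 132.675 Mb over INPP5A had 11 partners at such distances and was called lower with 2 of them. The gene-free bin at 133.025 Mb was called lower with 5 of its 6 partners, as was the ADGRA1 bin at 133.075 Mb. For the KNDC1 bin at 133.175 Mb it was 4 of 4. Of all listed pairs at these distances 7.92% were called lower.

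The matrix of listed pairs shows 2 dense blocks, whose limits were set after the values were seen. The inner block, from 132.1 to 132.65 Mb, runs from JAKMIP3 through PWWP2B into INPP5A. In it 43 of 55 possible pairs between bins were listed (78.2%), and 30 of its 54 pairs, within-bin ones included, were called lower with a median of -0.40. The outer block, from 132.65 to 133.35 Mb, runs from the later bins of INPP5A to CALY. It had 75 of 91 possible pairs listed (82.4%), and 57 of its 89 pairs were called lower with a median of -0.50. Between the blocks 16 of 154 possible pairs were listed (10.4%), over longer distances than inside them, and 4 were called lower with a median of -0.38. Elsewhere in the region 73 of 192 pairs, within-bin ones included, were called lower, with a median of -0.25. For pairs of different bins alone, 19 of 43 were called lower in the inner block (median -0.35) and 43 of 75 in the outer (-0.45). Elsewhere it was 15 of 120 (-0.20), against 5.83% of all listed pairs of different bins.

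**Figure D3:**
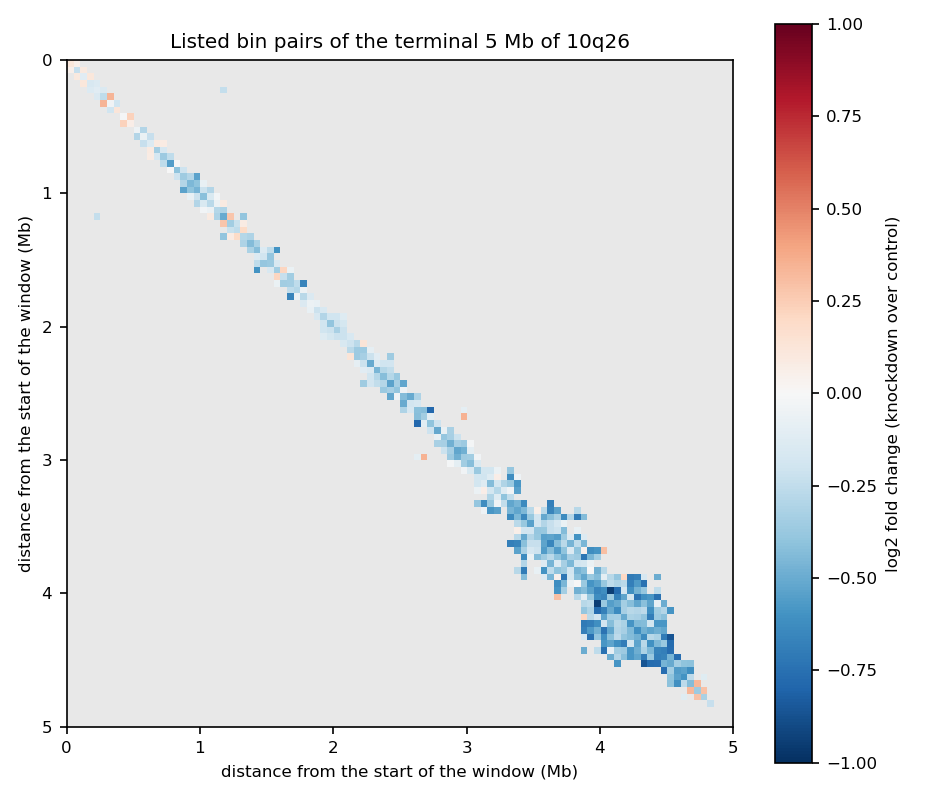
Log2 fold change (knockdown over control) of each listed pair of 10q26, placed by the distances of both bins from the inner edge of the region in Mb, with unlisted pairs left blank. The 2 dense blocks stand out in the outer part, with medians of -0.40 in the inner and -0.50 in the outer block.

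The 10 lowest pairs by log2 fold change were all pairs of different bins in the outer part of the region, 8 of them inside the outer block. In all 10 both knockdown libraries lay below both control libraries, as in 260 of the 351 pairs of the region. Over all listed pairs the share was 26.3%. Pairs picked for the lowest fold changes tend to separate in this way, so their separation is no further support. The lowest joined the bin of INPP5A and NKX6-2 at 132.775 Mb with a CFAP46 bin at 132.875 Mb. It had 2.29 and 2.52 CPM in knockdown (277 and 375 contacts) and 4.46 and 4.80 CPM in control (682 and 740 contacts), a log2 fold change of -0.94 ± 0.16. This was the one pair of the 10 whose call was kept under all 11 alternatives.

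The next was the 200 kb pair of ADGRA1 with the bin of TUBGCP2 and CALY, at 1.31 and 1.01 CPM in knockdown and 2.23 and 1.96 CPM in control (-0.86). Its call was lost without knockdown library 2. The pair of KNDC1 with the same bin had 1.13 and 1.78 CPM in knockdown and 2.56 and 2.42 CPM in control (-0.77), and the pair of NKX6-2 with the CFAP46 start bin had 1.22 and 1.96 CPM in knockdown and 2.73 and 2.73 CPM in control (-0.77). Both calls were lost without knockdown library 1, in which the lower of the 2 knockdown values was measured. Spans of 400 kb also appear among the 10. INPP5A at 132.725 Mb with ADGRA1 at 133.125 Mb had 1.52 and 1.24 CPM in knockdown and 2.38 and 2.25 CPM in control (-0.75), a call lost without either knockdown library. CFAP46 at 132.825 Mb with the UTF1 and VENTX bin had 1.45 and 1.78 CPM in knockdown and 2.54 and 2.90 CPM in control (-0.75), a call lost without knockdown library 1. CFAP46 with ADGRA1 at 250 kb had 1.83 and 2.66 CPM in knockdown and 3.66 and 3.86 CPM in control (-0.74), likewise lost without knockdown library 1.

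Of the other 3, the pair of the ADAM8 bin with the ECHS1 bin had 2.40 and 1.74 CPM in knockdown and 3.63 and 3.38 CPM in control (-0.77). The pair of the UTF1 and VENTX bin with the CALY bin had 2.06 and 1.84 CPM in knockdown and 3.52 and 3.08 CPM in control (-0.76). Both were lost without knockdown library 2. The pair from 131.425 to 131.525 Mb, 2 bins with no protein-coding gene, had 1.07 and 1.28 CPM in knockdown and 2.22 and 1.86 CPM in control (-0.79). Its call was lost without knockdown library 1 and without control library 1.

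**Figure D4:**
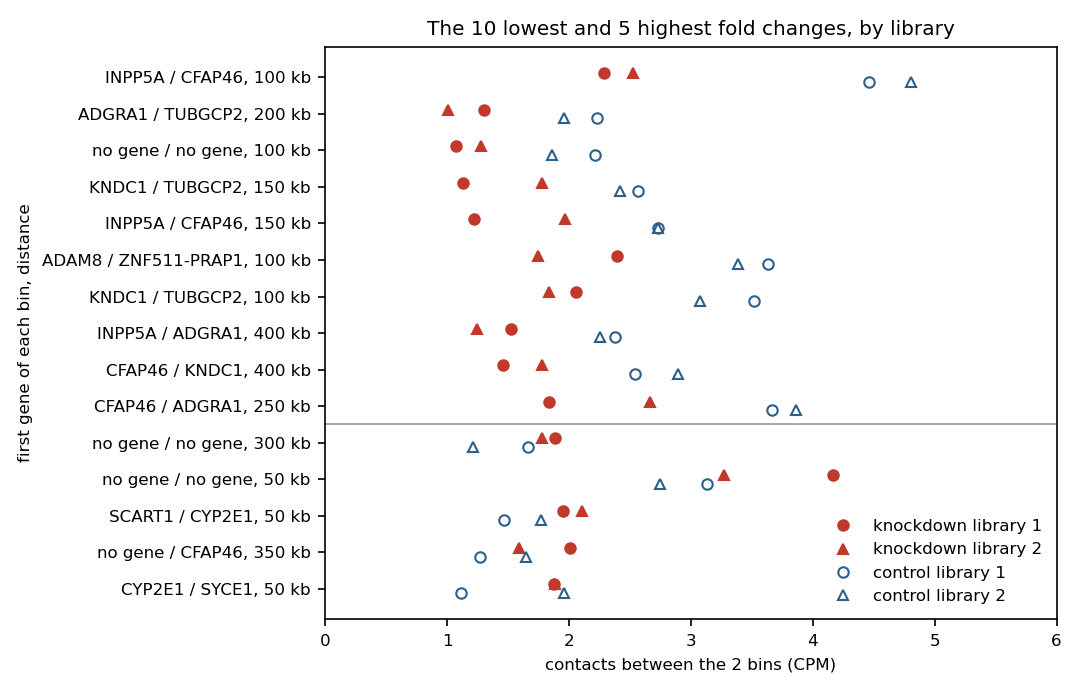
CPM per library of the 10 pairs of 10q26 with the lowest log2 fold changes (upper rows, from -0.94) and the 5 with the highest (lower rows, up to 0.35), each row named by the first gene of each bin and their distance in kb. In each of the 10 upper rows, picked for their low fold changes, both knockdown points lie left of both control points.

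At the other end, none of the 5 highest pairs was called. The 300 kb pair from 131.475 to 131.775 Mb, without a protein-coding gene, had 1.88 and 1.78 CPM in knockdown and 1.66 and 1.21 CPM in control (0.35). The adjacent bins at 129.075 and 129.125 Mb, also without a protein-coding gene, had 4.16 and 3.27 CPM in knockdown and 3.13 and 2.75 CPM in control (0.34). In both of these pairs the knockdown libraries lay above the control libraries. The 350 kb pair from 132.475 Mb to the CFAP46 bin at 132.825 Mb, which crosses from the inner to the outer block described above, had 2.01 and 1.59 CPM in knockdown and 1.27 and 1.65 CPM in control (0.30). SCART1, a scavenger receptor family gene, with CYP2E1 had 1.95 and 2.11 CPM in knockdown and 1.46 and 1.77 CPM in control (0.33). CYP2E1 with SYCE1 had 1.88 and 1.88 CPM in knockdown and 1.11 and 1.96 CPM in control (0.29), so the knockdown values lay between those of the 2 control libraries. Without control library 1 that value was -0.074, and without control library 2 it was 0.76 and called higher. The CYP2E1 pairs both joined neighbouring bins beyond the outer block.

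Some pairs outside the naming rule, chosen after their values were seen, show the scale of the stronger contacts. The adjacent pair of the UTF1 and VENTX bin with the ADAM8 bin had 9.83 and 10.1 CPM in knockdown and 14.8 and 17.2 CPM in control (-0.69). The 200 kb pair of the bin of DPYSL4 and STK32C with PWWP2B had 5.97 and 6.07 CPM in knockdown and 7.37 and 8.75 CPM in control (-0.42). The longest listed pair of the region joined the start bin of EBF3 with a gene-free bin 950 kb inward at 129.025 Mb, at 2.63 and 2.52 CPM in knockdown and 3.11 and 2.98 CPM in control. Its log2 fold change was -0.24 and it was not called.

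Counts and standard errors differed between the kinds of pair. A within-bin pair of the region held 954 to 25854 contacts per library (median 5451.5), whereas a pair of different bins held 130 to 3283 (median 423.5). The standard errors of the within-bin log2 fold changes ran from 0.055 to 0.090 in the start bins of the landmark genes, and those of the 10 lowest pairs from 0.16 to 0.23. The 24 landmark genes, chosen with earlier results known, leave out others such as JAKMIP3, C10orf143 and FRG2B. The start bins of JAKMIP3 and C10orf143 lost their calls with the trend removed, and that of FRG2B was not called. Of the 21 landmark start bins, 21 were called lower, against 14.3% of all listed within-bin pairs. Under all 11 alternatives, some of which repeat or nearly repeat another fit, 18 of the 21 kept their call. The exceptions were the bins of PPP2R2D, CYP2E1 and SYCE1.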

How the data were processed

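The authors deposited a table of raw contact counts per pair of 50 kb bins, 1 column per library, per the file headers. Reads were processed with HiC-Pro on hg38, per the submitters' processing notes; versions and filters are not given in the sources used here. The smallest deposited mean log2 CPM of a pair was -0.013, so rare pairs are not listed. Titles carry the word "merged" without saying of what. The same deposited table holds the authors' log2 fold change, F statistic (a score), p-value and adjusted p-value, which served as an alternative. The authors' log2 fold changes correlated at 0.999997 with those of the fit with the abundance trend removed, so the alternatives nearly repeat each other there.

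Counts were fitted over all 89239 pairs with edgeR 4.0.16 (glmQLFit and glmQLFTest, TMM factors 1.05 and 1.04 in knockdown, 0.966 and 0.944 in control; R 4.3.3), without a replicate block. No pair was removed by filterByExpr (0 pairs), so the alternative without the filter gave the main fit again. P-values were adjusted by Benjamini-Hochberg over the whole table at a threshold of 0.05. CPM are counts per 1000000 after TMM scaling, and the SE was derived from the log2 fold change and the F statistic. The code was tested on simulated data. Alternatives were DESeq2 size factors and the DESeq2 1.42.0 test, a replicate block, omission of the filter or of each library in turn, removal of the abundance trend by loess (span 0.3), TMM within distance classes, a threshold of 0.01 and subsets of pairs.

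Gene positions and promoter and microRNA sequences came from RefSeq (GRCh38.p14); genes whose table entry gave no strand were placed by the middle of the gene. The text names the 10 lowest and the 5 highest pairs and the start bins of 24 landmark genes, in 6 role lists. The region, the genes and the lists were chosen with earlier results of these data known. Base composition of whole bins was not analysed here.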

Additional observations from a re-analysis of the deposited data

How the results depend on the processing

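The lean toward lower contacts in knockdown held in direction under every alternative run for the count, the median and the share of contacts. The number of called pairs, 164, was 83 when only contacts within a bin and 81 when only contacts between bins were counted, as fewer pairs were counted, and ranged from 97 to 174 when 1 library was left out. It was 143 with DESeq2, 173 with DESeq2 size factors, 162 with TMM within distance classes, 166 in the authors' deposited table and 127 at the threshold of 0.01. Without control library 2, 3 of 146 called pairs were higher and 143 lower; under the other alternatives 0 were higher. The median log2 fold change, -0.34, ranged from -0.38 to -0.30 over the leave-one-out fits, and was -0.39 within bins, -0.30 between bins and -0.41 in the outer 2.5 Mb. The ratio of shares, 0.809, was 0.806 for within-bin contacts as a share of all within-bin contacts, and 0.800 against the listed contacts of chromosome 10. For the pair of CYP2E1 with SYCE1, the log2 fold change ranged from -0.074 to 0.76 when 1 library was left out, the one named pair that reversed; the cause was not tested. Over the named pairs and their alternatives, 378 values kept direction and call, 16 lost the call, 1 gained it and 1 reversed. These values are not all separate checks. The fit without the filter equals the main fit, and the authors' table nearly repeats the trend-removed fit. Deviations of same-numbered libraries from their group means correlated at 0.0214, so the numbers were not taken to pair the libraries; with the replicate block, 170 pairs were called. With 2 libraries a group, the 10 lowest pairs, all of different bins, had larger standard errors than the start bins of the landmark genes. How much of that was due to depth was not tested.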
